A study of Mus musculus with 28 samples.

Results

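The genes of the mitochondrial ribosome were followed in regulatory T cells (Tregs) sorted from the spleen and from brain tumors of mice treated with immune checkpoint antibodies. The genes were taken by symbol alone, as every row of the expression table named Mrpl or Mrps followed only by digits. The rule found 75 of 53801 features, of which 49 carry a large subunit symbol (Mrpl) and 26 a small subunit symbol (Mrps).

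Mice carried CT2A, a transplanted mouse glioma line used as a model of glioblastoma (GBM). Once tumors had reached 2 mm3 the mice received the control antibody IgG2a, or the agonist antibody αGITR (clone DTA-1) with the blocking antibody αPD1 (clone RMP1-14), at 250 µg per mouse in 4 doses given every 3 days, and tissue was taken 2 days after the last dose. Tregs were sorted as TCR+CD4+CD25hi CD127lo cells and made into Smart-seq2 libraries, a full-length method for small amounts of RNA. Here 27 libraries were analysed: 7 of spleen after IgG2a, 8 of spleen after αPD1+αGITR, 5 of GBM after IgG2a and 7 of GBM after αPD1+αGITR. The study's methods name C57BL/6 as its wild-type strain and both sexes, but the labels give neither strain, sex nor age for these samples. All mice carried tumors, so the spleen libraries are not from tumor-free animals. The gate does not include FOXP3, and GITR and PD1 are themselves found on Tregs.

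Mitochondria keep their own ribosomes. They hold a large and a small subunit, each built on an rRNA made from mitochondrial DNA and on many proteins that are encoded in the nucleus, made in the cytosol and imported. Their products are the few core subunits of the respiratory chain and the ATP synthase that mitochondrial DNA still encodes, so a working respiratory chain needs the output of both genomes. Some of these ribosomal proteins descend from bacterial ones, and others occur only in mitochondria. In T cells, mitochondrial translation is known to be needed for activation and for the function of Tregs.

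A name does not always give the place of a protein. Mrps30 encodes a protein of the large subunit, and the product of Mrps36 is now counted as a subunit of the 2-oxoglutarate dehydrogenase complex. The symbol rule leaves out 8 further genes of the ribosome that are in the table, among them Mrps18c and Dap3. Of the 75 genes all have a position in the GRCm38 (mm10) assembly, spread over 17 chromosomes, with 11 genes on chromosome 11 and 7 on chromosome 6. A further 5 rows carry the names of pseudogene copies, and Mrpl23.ps1 was measured at a mean of 28.0 TPM, a transcript abundance scaled to length and to a fixed library total, so reads of Mrpl23 and of its copy may have been split. The other copies averaged below 1 TPM.

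Promoter sequences from RefSeq (GRCm38.p6), 250 bases before to 50 bases after the start of transcription, matched 66 of the 75 genes. They are shown here for Mrpl32 and Mrpl58, whose levels are described further on and whose promoters carry core motifs. Mrpl44 is shown as well, whose window holds no exact match to a core. Near matches, such as gcacgcg in the Mrpl44 window beside the NRF1 core, were not searched. Capitals mark the bases of a match to the NRF1 core GCATGCG, the ETS (GABP) core CCGGAAG or the YY1 core AAGATGG on either strand. These 3 cores are those of factors known to act on nuclear genes of mitochondria. The windows lie at chr13:14612988-14613287 (minus strand) for Mrpl32, chr11:115403502-115403801 (plus strand) for Mrpl58 and chr1:79775768-79776067 (plus strand) for Mrpl44.
Mrpl32: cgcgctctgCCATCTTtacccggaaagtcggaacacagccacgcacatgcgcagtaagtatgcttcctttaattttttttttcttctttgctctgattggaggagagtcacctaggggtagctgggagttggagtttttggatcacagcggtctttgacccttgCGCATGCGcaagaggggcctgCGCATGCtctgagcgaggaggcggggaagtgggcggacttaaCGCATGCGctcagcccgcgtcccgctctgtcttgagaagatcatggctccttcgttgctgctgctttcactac
Mrpl58: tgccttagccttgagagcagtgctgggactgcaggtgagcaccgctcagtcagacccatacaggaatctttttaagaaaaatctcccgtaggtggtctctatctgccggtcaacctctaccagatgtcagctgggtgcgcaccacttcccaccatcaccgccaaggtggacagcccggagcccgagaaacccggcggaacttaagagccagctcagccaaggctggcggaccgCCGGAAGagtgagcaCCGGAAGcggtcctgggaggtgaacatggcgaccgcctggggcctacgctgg
Mrpl44: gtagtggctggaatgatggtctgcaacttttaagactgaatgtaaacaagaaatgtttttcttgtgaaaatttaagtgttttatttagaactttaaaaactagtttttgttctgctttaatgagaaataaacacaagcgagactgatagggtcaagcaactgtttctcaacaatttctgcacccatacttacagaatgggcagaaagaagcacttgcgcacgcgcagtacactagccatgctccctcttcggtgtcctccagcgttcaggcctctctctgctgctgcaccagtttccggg

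The Mrpl32 window holds the NRF1 core at 3 places in the last 100 bases before the start and the YY1 core at its far end. That far end, with the YY1 match, lies inside the neighboring gene Psma2 on the opposite strand. The Mrpl58 window holds 2 ETS matches next to the start. Over the 66 genes, the ETS core was found in 23 (34.8%), YY1 in 12 (18.2%) and NRF1 in 7 (10.6%). All 27025 genes with a promoter in the table gave 9.93%, 7.28% and 4.01%, and the 5700 of them that were measured well enough to be tested gave 24.3%, 9.42% and 7.98%. The genes of the cytosolic ribosome, with 64 promoters, gave 40.6% for ETS, 15.6% for YY1 and 7.81% for NRF1, and the nuclear genes of oxidative phosphorylation (OXPHOS), with 66 promoters, gave 24.2%, 15.2% and 16.7%. The NRF1 core overlaps its own reverse complement, so that 16 NRF1 matches stand for fewer places. Of the 28 ETS matches 26 lay within 100 bases before or in the 50 bases after the start, and of the 14 YY1 matches 8 lay after it. A match to 7 letters is a description of the sequence and not a site of binding, and near matches were not counted. Promoter GC content had a median of 58% against 52.8% over all genes.

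**Figure D1:**
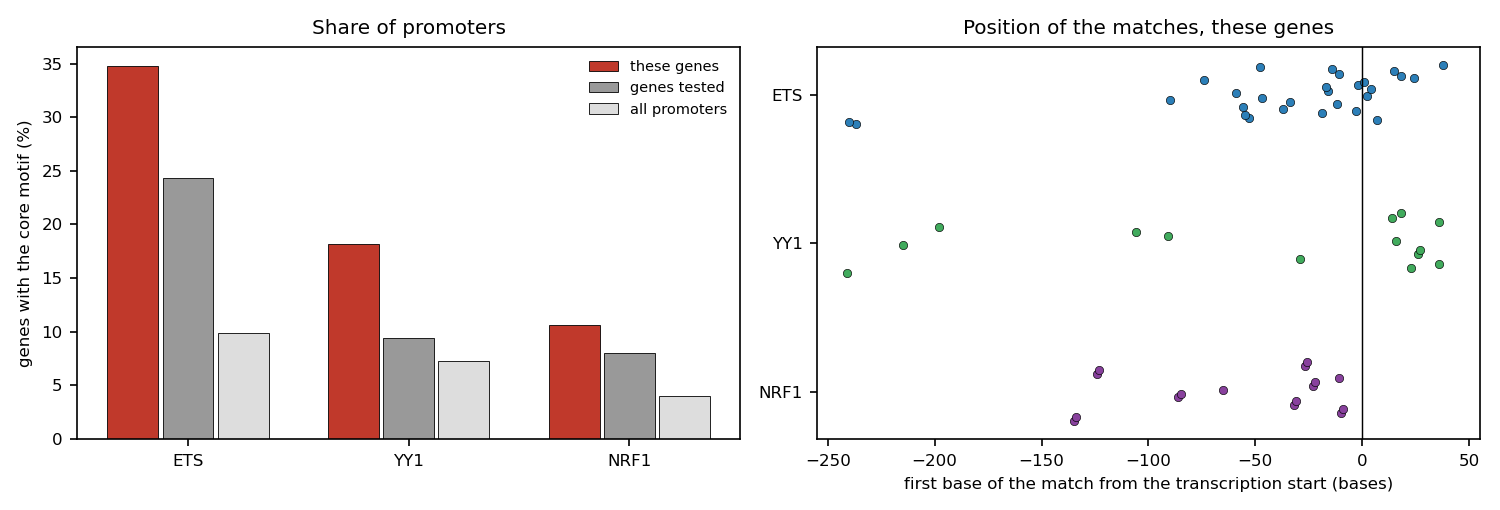
The left panel shows the percentage of genes whose promoter window holds each core motif, for the mitochondrial ribosomal protein genes, for genes tested in at least 1 comparison and for all promoters; the right panel places each match by its first base relative to the start of transcription. The ETS core stands in 34.8% of these genes against 9.93% of all promoters, and most of its matches crowd around the start.

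Many of these genes share their promoter region with another gene. A protein-coding gene on the opposite strand started within 1000 bases upstream, without overlap, of 16 of the 75 (21.3%), against 6.77% of 21924 protein-coding genes. Shares among tested genes only, or in the cytosolic ribosome and OXPHOS sets, were not taken. Mrps34 and Eme2 start 29 bases apart, Mrpl54 and Apba3 26, Mrpl49 and Fau 59, and Mrpl32 and the proteasome gene Psma2 75. These distances use GENCODE gene starts, which can differ from the RefSeq starts of the promoter windows. For Mrpl32 the GENCODE start (14613165) lies upstream of the RefSeq start, inside the window shown. In another 15 genes (20%, against 4.13%) the opposite start lay within 1000 bases inside the gene, so that the annotated pair overlaps at its starts. Mrpl46 and Mrps11 overlap each other in this way by 412 bases, and the pairs include Mrpl48 with Rab6a (891 bases), Mrps30 with B430218F22Rik (622), Mrpl44 with Wdfy1 (125) and Mrpl36 with Ndufs6 (29). Smart-seq2 does not mark the strand, so reads from the overlap of such a pair cannot be assigned to either gene.

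Before the comparisons, the libraries themselves. Foxp3, the lineage factor of Tregs, was present in every library at 21.5 to 440 TPM. Counting depth could not be obtained from TPM and is unknown. The number of genes above 1 TPM ran from 7702 to 17460. The 10 features with the highest mean over all libraries took 31.9% to 78.3% of the TPM of a library, which limits what is left for every other gene. The share had a median of 47.1% in GBM after αPD1+αGITR and 58.2% to 65.0% in the other 3 groups. Of the GBM libraries after IgG2a, tumor_369_a had the fewest genes above 1 TPM (7702), and tumor_79_a had the highest summed level of 7 macrophage and microglia markers. That sum was 3738 TPM against 36.3 to 300 TPM in the other 4 libraries of its group and 29.3 to 1172 TPM in the 7 treated GBM libraries. Markers of red blood cells were up to 12434 TPM in spleen after αPD1+αGITR and at most 80.8 TPM in treated GBM. B cell markers reached 60.6 TPM in 1 spleen library, CD8 markers 36.6 TPM and NK markers 14.1 TPM, and markers of neurons and glia 171 TPM in tumor_79_a. The part of any of these in the results was not tested, other than by leaving out the 2 GBM libraries named.

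The levels of the 75 genes spanned a wide range, from Mrps24, a small subunit protein of bacterial descent, at a mean of 115 TPM over the 27 libraries, to Mrpl1 at 2.02 TPM. Next to Mrps24 stood Mrpl52 (79.6 TPM), Mrpl3 (67.6 TPM), Mrps34 (57.4 TPM) and Mrps6 (57.3 TPM). At the low end were Mrpl35 (5.31 TPM), Mrps31 (3.08 TPM), Mrpl11 (2.22 TPM), which sits at the base of the stalk that binds translation factors, and Mrpl47 (2.16 TPM). The median over the 75 means was 21.2 TPM, and 59 genes averaged above 10 TPM. TPM is scaled to transcript length, so these levels can be set side by side.

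The single libraries show how loosely such levels hold. Mrps24 was the most abundant of the 75 in 12 libraries and Mrpl3 in 5. Mrps24 itself ranged from 0 to 273 TPM and Mrpl3 from 0 to 236 TPM. Only 28 genes were above 0 in every library, and the other 47 were listed at 0 in at least 1. A library had between 59 and 75 of the genes above 0, with a median of 74. With TPM alone, a 0 says only that the gene is listed at 0.

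**Figure D2:**
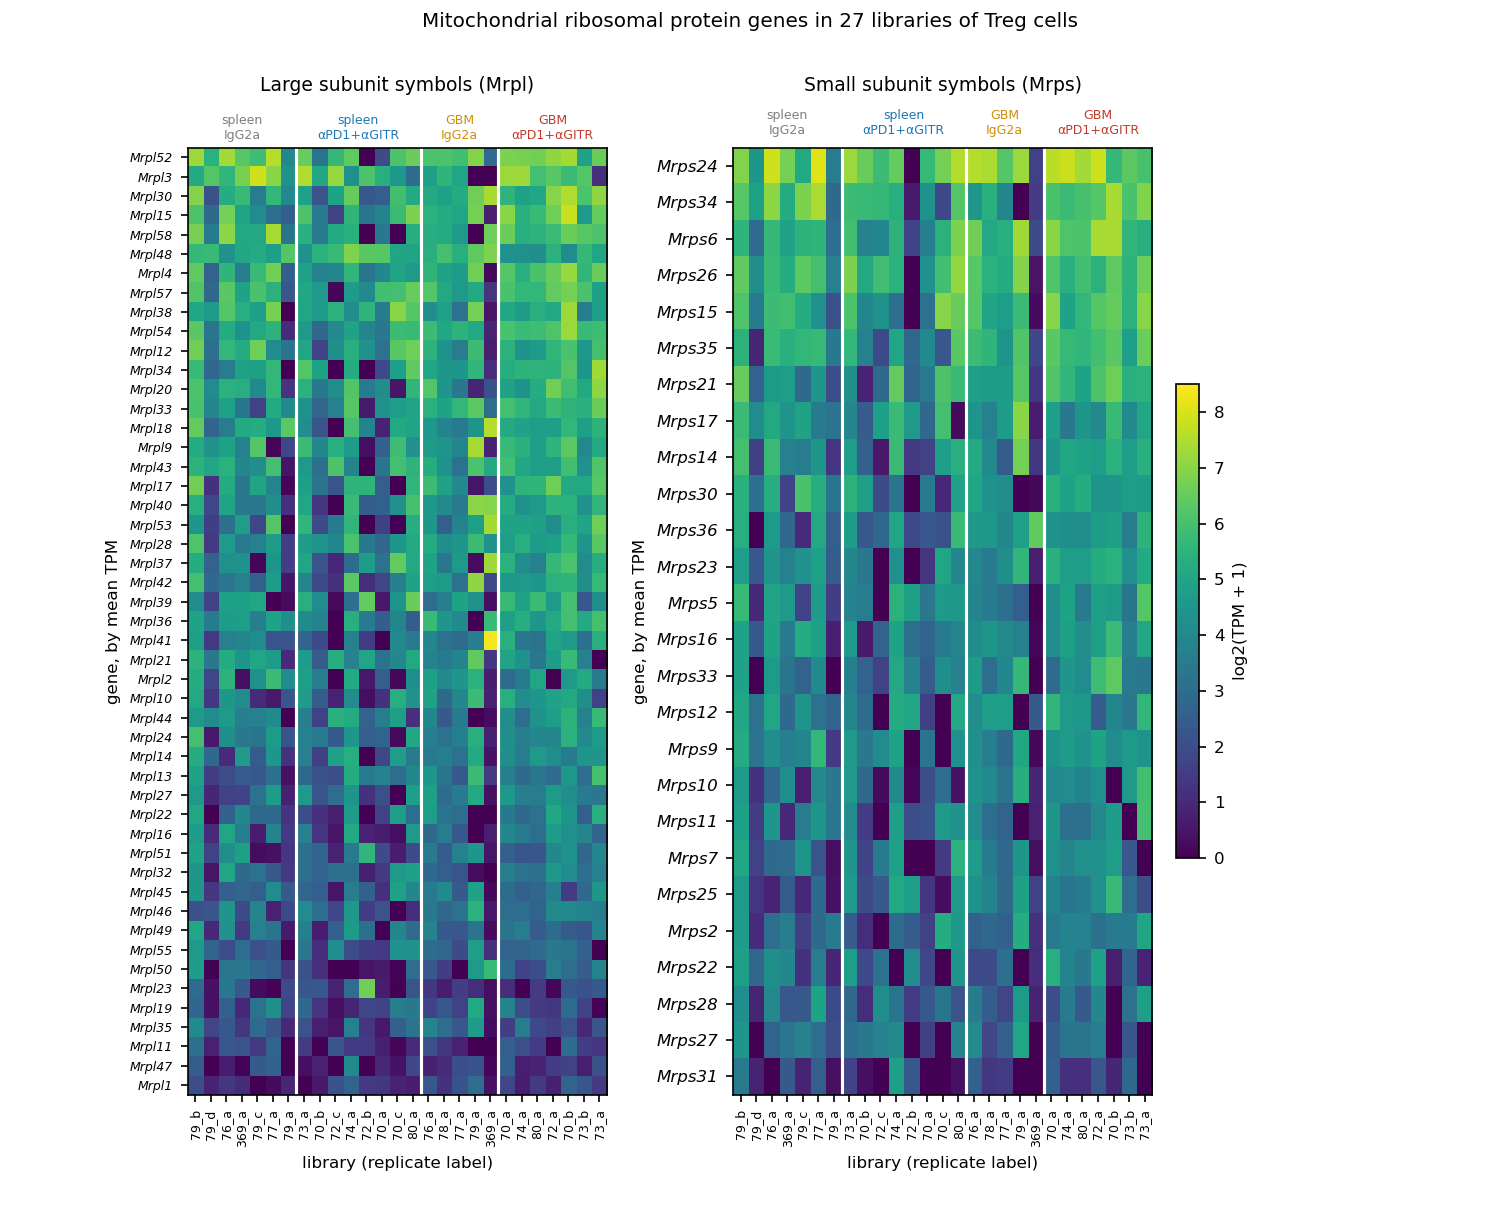
Level of each of the 75 genes (rows, ordered by mean TPM, large subunit symbols left and small subunit symbols right) in each of the 27 libraries (columns, by group), as log2(TPM + 1). The row of Mrps24 is bright in most libraries, and the column of GBM IgG2a library tumor_369_a is dark for nearly all genes except a few such as Mrpl41 at 337 TPM.

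How closely the genes moved together was described across libraries. Within groups, the median correlation between pairs of the 59 better measured genes across the 27 libraries was 0.39, against 0.65 for 71 OXPHOS genes encoded in the nucleus and 0.92 for 81 cytosolic ribosomal protein genes. These values are a description without a test, since all pairs share the same libraries, and the sets differ in level (median of the mean TPM 26.7, 56.2 and 311). Summed over the 75 genes, a library held 458 to 3749 TPM. The group medians were 1753 TPM in spleen after IgG2a, 1471 TPM in spleen after αPD1+αGITR, 1654 TPM in GBM after IgG2a and 2785 TPM in GBM after αPD1+αGITR. Treated GBM libraries ran from 1656 to 3749 TPM and overlapped with every other group. The ratio of summed large to summed small subunit symbols lay between 1.37 and 1.70 in 4 of the 5 GBM libraries after IgG2a. In library tumor_369_a it was 13.8, where Mrpl41 (337 TPM) and Mrpl18 (186 TPM) made up 20.3% and 11.3% of the sum and the median gene stood at 0.71 TPM. This library is therefore left out, in addition, wherever a result rests on it.

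**Figure D3:**
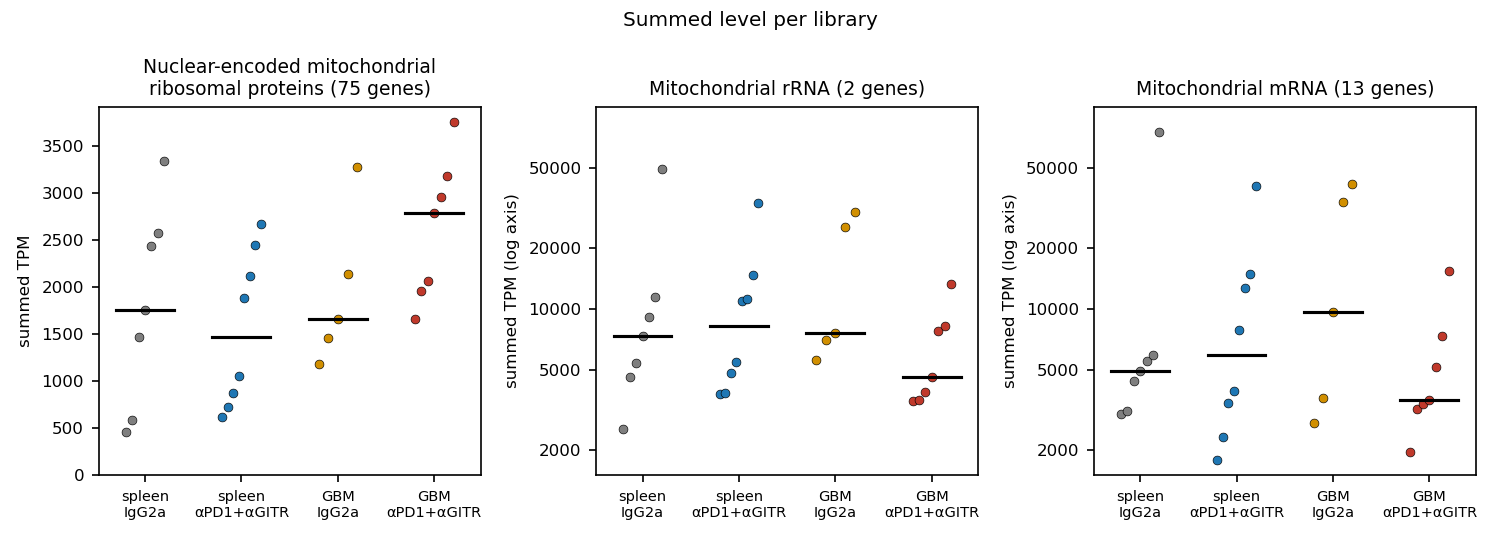
Summed TPM per library (points) with the group median (bar) for the 75 nuclear genes of the mitochondrial ribosome (linear axis), for the 2 mitochondrial rRNAs and for the 13 mitochondrial mRNAs (log axes). The treated GBM libraries have the highest median for the nuclear genes, 2785 TPM, and the lowest for the mitochondrial RNAs, with overlap between all groups.

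Tregs of the tumor were compared first between αPD1+αGITR and IgG2a. Most of the genes were measured at higher levels after treatment. Of the 64 genes that were tested (mean above 10 TPM in at least 1 of the groups), 57 had a positive log2 fold change. In the upward direction 13 passed the threshold of the study, read here as an unadjusted p under 0.05 with more than a 2-fold change. Only Mrpl48 passed it downward. Those 13 are 20.3% of the genes tested, and over all 7848 genes tested 16.8% passed upward and 4.87% downward, so the count lies close to the background. No gene of the 75, nor any gene in the table, had a Benjamini-Hochberg adjusted p under 0.05 in limma, and 22.3% of all genes had an unadjusted p under 0.05. The median log2 fold change was 1.02 for these genes and 0.62 for all genes tested, of which 71.6% were positive. The filter itself bears on these counts, since 7 of the 64 genes entered only through the treated group and 3 only through the controls. Of the 13 upward calls Mrpl32, Mrpl44, Mrpl16 and Mrps5 entered in the first way, so their higher level after treatment is a description. With a mean above 10 TPM required in each group, 8 of 54 genes passed upward (14.8%, background 14.2%) and 1 downward, and the call of Mrps15 was lost as well. The 6 Treg markers had a median log2 fold change of 0.26 here and the 6 tested macrophage and microglia markers -0.48. The 2 tested red blood cell markers had -1.49, the 2 of neurons and glia -1.02 and the 1 CD8 marker 0.91. None of these markers passed. As these are bulk libraries, fewer cells with a transcript and less of it per cell cannot be told apart.

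Mrps34, a protein found only in mitochondrial ribosomes and needed for a stable small subunit, gave the largest difference (chr17:24895116-24897502). The 5 libraries of GBM after IgG2a were at 0, 1.84, 13.8, 21.2 and 41.3 TPM. After αPD1+αGITR the 7 libraries ran from 54.9 over a median of 65.7 to 168 TPM, so that every treated library lay above every control. The log2 fold change was 3.30 ± 0.76 (SE, limma), with an adjusted p of 0.0977 and an exact permutation p of 0.00126, two-sided, which is the smallest p that 7 against 5 libraries allow. Its mean was above 10 TPM in both groups. Without library tumor_369_a the log2 fold change was 2.92, and without that library and library tumor_79_a it was 1.77 (unadjusted p = 0.000781, limma).

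Mrpl32, a large subunit protein that is cut to its mature form by a protease of the inner membrane, was low throughout and was tested only because of its mean after treatment (chr13:14608184-14613165). It was at 0, 0.22, 3.61, 4.93 and 6.43 TPM after IgG2a and at 7.65 to 22.2 TPM, with a median of 11.3 TPM, after αPD1+αGITR. Its groups did not overlap either, with a log2 fold change of 2.05 ± 0.71 (SE), but with a mean of 3.04 TPM in the controls and 12.3 TPM after treatment it had to be higher after treatment to be tested, so no test of it is given. Over all genes tested 1.77% did not overlap in this direction and 0.42% in the other, and of the 64 genes Mrps34 and Mrpl32 did not upward and none did not downward. Leaving out libraries tumor_369_a and tumor_79_a lowered the log2 fold change of Mrpl32 to 1.08.

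Mrpl44, which resembles RNase III enzymes and is required to assemble the large subunit, was at 0, 0.23, 4.14, 10.6 and 13.8 TPM after IgG2a and at 7.33 to 52.5 TPM (median 19.4 TPM) after treatment. It too was tested only through its treated group (means of 5.75 and 25.5 TPM), and its log2 fold change of 2.45 ± 0.78 (SE), with 5 of 7 treated libraries above all controls, is a description. Mrpl3, close to the site where peptide bonds form, was at 0 in libraries tumor_79_a and tumor_369_a and at 27.4, 31.3 and 46.1 TPM in the others. Treated libraries ran from 1.24 to 150 TPM with a median of 75.4 TPM, and 6 of 7 were above all controls. For Mrpl3 the log2 fold change was 2.62 ± 1.10 (SE; adjusted p = 0.186, limma), and it lost the call without library tumor_369_a, at 1.85.

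The other 9 upward calls were spread over both subunits. Of proteins with a bacterial homolog, which make up most of the genes tested, the large subunit had Mrpl20 (log2 fold change 2.19), Mrpl17 (2.05), Mrpl4 (1.83), which lines the exit tunnel, Mrpl16 (1.83) and Mrpl34 (1.56), and the small subunit Mrps5 (1.92) and Mrps15 (1.69). Mrps30 (2.11) and Mrpl54 (1.62), both found only in mitochondria, completed the 13. Without tumor_79_a the calls of Mrpl3, Mrpl16, Mrpl17 and Mrps30 were lost, and those of Mrpl3, Mrps30, Mrpl4, Mrps15, Mrpl34 and Mrpl54 without tumor_369_a. Mrpl34 and Mrpl48 were named after their values were seen, as calls outside the naming rule. Mrpl54 stood at 0.75, 33.4, 35.1, 44.4 and 56.1 TPM after IgG2a and at 53.4 to 150 TPM (median 57.2 TPM) after αPD1+αGITR. Most of the treated libraries were thus just above the highest controls, and the log2 fold change fell from 1.62 to 0.70 without library tumor_369_a.

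Mrpl48, a mitochondria-specific protein of the large subunit, went the other way (chr7:100545751-100608301). The IgG2a libraries were at 39.7, 40.5, 63.2, 82.8 and 115 TPM, and the treated libraries ran from 16.4 over a median of 18.9 to 49.3 TPM. Of the 7 treated libraries 5 were below all controls. The log2 fold change of -1.27 ± 0.51 (SE, limma) had an adjusted p of 0.174 and an exact permutation p of 0.0126. A row named as a pseudogene of Mrpl48 was at most 1.11 TPM.

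Other members with a role of their own did not pass. Mrpl12, the stalk protein that recruits translation factors and also binds the mitochondrial RNA polymerase, had a log2 fold change of 1.24 ± 0.74 (SE; adjusted p = 0.317, limma). Mrps12, at the decoding center, had 1.08 ± 0.83 (SE; adjusted p = 0.422, limma). Mrpl58, a peptidyl-tRNA hydrolase built into the large subunit that can free stalled ribosomes, had 1.69 ± 0.81 (SE) with an unadjusted p of 0.0505 in limma. Mrps27, a protein of the pentatricopeptide repeat family, had -0.57 ± 0.95 (SE), Mrps36 had -0.38 ± 0.57 (SE) and Mrpl45, which ties the exit tunnel to the inner membrane, had 0.0073 ± 0.80 (SE). The level of Mrpl45 varied least among the 4 groups of all 75 genes and that of Mrps34 most.

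How much of this rests on 2 control libraries can be stated directly. Without library tumor_369_a, 12 of 68 genes passed upward (17.6%, background 10.9%) and 1 downward (background 4.13%), but the median over the tested members fell to 0.40, next to 0.36 for all genes, 47 of the 68 were positive where 67.6% of all genes were, and only 8 of the 14 calls were shared. Without library tumor_79_a, 24 passed upward (38.7% of the 62 tested, background 20.9%). Without both libraries 6 passed upward (9.68%, background 11.6%) and none downward, the median was 0.67 against 0.52, and 54 of 62 fold changes were positive, where 75.9% of all genes were. Mrps34 and Mrpl4 were the calls shared with the full data, and Mrps21, Mrpl18, Mrps23 and Mrpl53 were the other 4. The 3 controls then left were tumor_76_a, tumor_77_a and tumor_78_a.

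**Figure D4:**
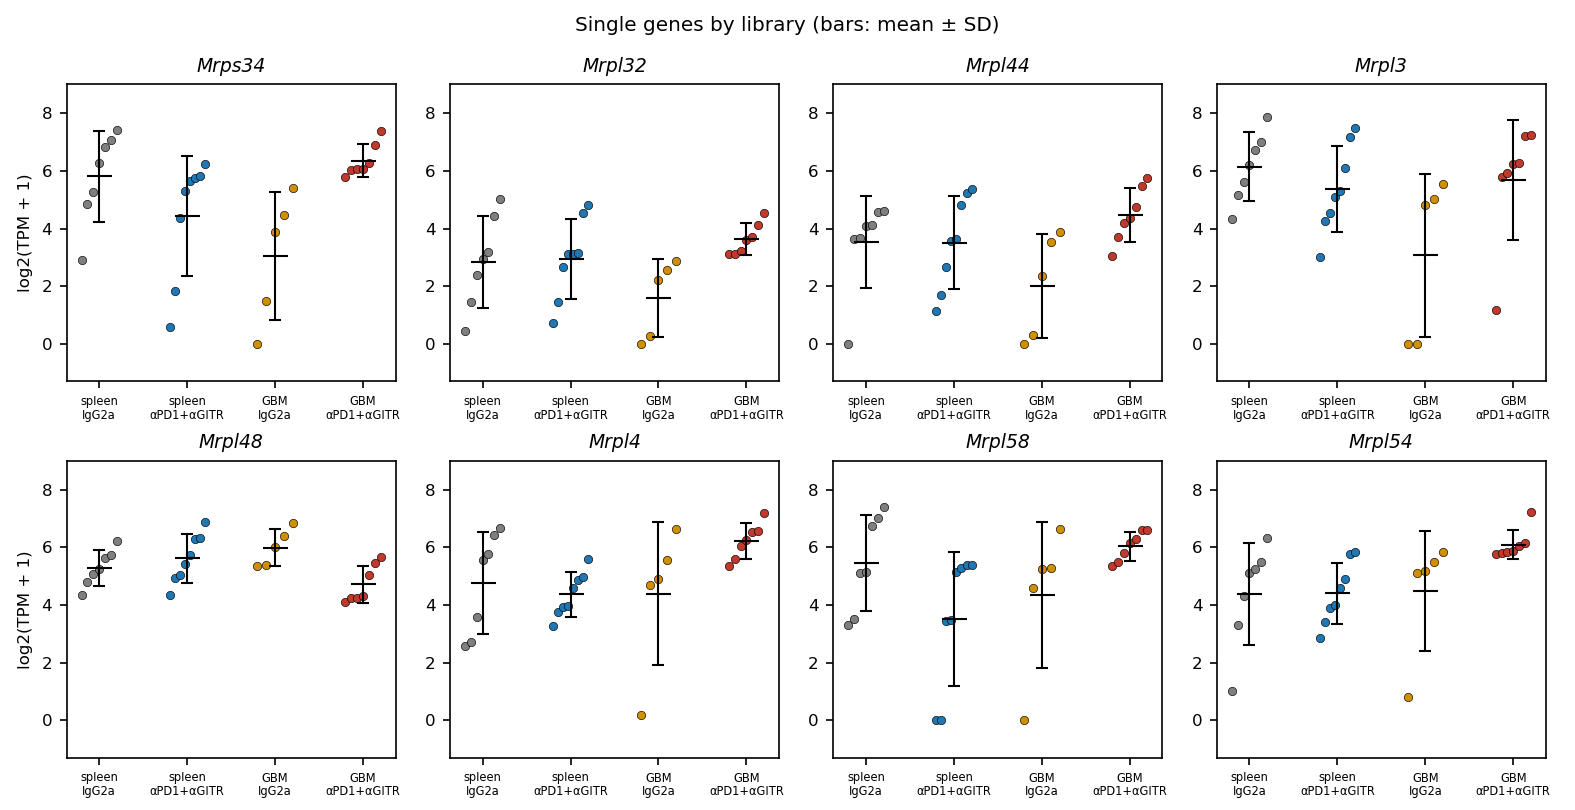
Level of 8 genes by group as log2(TPM + 1); points are libraries, and bars give the mean ± SD on the log2 scale. Mrps34 and Mrpl32 are the genes in which all 7 treated GBM libraries lie above all 5 GBM libraries after IgG2a, and Mrpl48 is lower in 5 of the 7.

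The rest of the translation machinery was set beside these genes from lists chosen by function. Over all genes 16.8% passed upward, against which the small counts here can be read. Of the ribosome genes outside the symbol rule, 7 were tested and 1 rose, Mrps18c, with a log2 fold change of 2.31 ± 0.77 (SE, limma). Among 11 tested genes of ribosome assembly 2 rose and none fell. Rbfa, a factor that matures the rRNA of the small subunit, was at 0.17 to 41.2 TPM (median 1.62 TPM) in the 5 GBM libraries after IgG2a and at 42.6 to 67.0 TPM after treatment, again without overlap, with a log2 fold change of 3.23 ± 0.83 (SE; adjusted p = 0.0977, limma; exact permutation p = 0.00126). Malsu1, which keeps the large subunit from joining too early, rose by 1.70 ± 0.67 (SE, limma). Of 8 translation factors 2 rose, the release factor gene Mtrf1l (2.70) and Oxa1l (1.83), whose product inserts new proteins into the inner membrane. Of 10 mitochondrial tRNA synthetases 3 rose, Hars2 (1.87), Fars2 (1.60) and Lars2 (1.22), and of 5 genes of mitochondrial transcription none passed in either direction in limma, with an unadjusted p under 0.05 for none. Of these genes Mrps18c, Mtrf1l, Hars2 and Fars2 averaged below 10 TPM in the controls and were tested only through the treated group. They had to be higher after treatment to be tested, so their values are a description. The calls left without them are Rbfa, Malsu1, Oxa1l and Lars2, with none among the genes outside the symbol rule. Without library tumor_369_a, 1 of 7 genes outside the symbol rule, 2 of 12 of assembly, 3 of 8 translation factors and 2 of 11 synthetases passed upward (background 10.9%), and the medians of the first 2 lists went from 0.47 to -0.08 and from 0.77 to -0.05. Without both tumor_369_a and tumor_79_a the counts were 0 of 7, 2 of 10, 1 of 8 and 1 of 10 (background 11.6%), with Malsu1, Rbfa, Oxa1l and Lars2 as the calls. Without tumor_79_a alone they were 2 of 7, 2 of 10, 2 of 8 and 2 of 10 (background 20.9%).

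With all libraries, the RNAs made from mitochondrial DNA had the opposite sign. All 13 mitochondrial mRNAs had negative log2 fold changes with a median of -1.21, and mt.Cytb (-1.54), mt.Co1 (-1.27) and mt.Nd1 passed the threshold downward. Of the rRNAs, mt.Rnr2 of the large subunit fell by 1.06 ± 0.43 (SE; adjusted p = 0.174, limma), from 5521 to 29378 TPM after IgG2a to 3427 to 13071 TPM after αPD1+αGITR. Of the 7 treated libraries, 5 were below all controls for mt.Cytb and mt.Nd1 and 4 for mt.Co1 and mt.Rnr2. The size of these differences, and with both left out the sign of most mRNAs, depended on libraries tumor_369_a and tumor_79_a. The summed mitochondrial mRNA was 41719 TPM in library tumor_79_a and 33909 TPM in library tumor_369_a, against 2717, 3616 and 9592 TPM in the other controls and 1962 to 15432 TPM in the treated libraries. Without both libraries the median log2 fold change of the 13 mRNAs was 0.099, with 5 negative and 8 positive values, mt.Rnr2 was at -0.25 ± 0.41 (SE) and mt.Rnr1 at 0.51 ± 0.56 (SE), and none passed. Without tumor_369_a alone all 13 mRNAs and both rRNAs were negative (mRNA median -0.73), and without tumor_79_a alone 12 of the 13 and both rRNAs were (-0.76), with no call in either case. Nuclear OXPHOS genes had a median of 0.80, with 17 of 73 passing upward (23.3%; 4 of 73 without library tumor_369_a), and cytosolic ribosomal protein genes 0.33, with 1 of 82 (1.22%). With those 2 libraries left out, the 3 nuclear sets were close, at 0.67 for the mitochondrial ribosome, 0.75 for OXPHOS and 0.80 for the cytosolic ribosome, with 6 of 62, 11 of 72 and 12 of 82 genes passing upward.

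In the spleen, αPD1+αGITR was compared with IgG2a in the same way. The genes of the mitochondrial ribosome were for the most part measured somewhat lower after treatment, and 1 passed. Of 62 genes tested 22 had a positive log2 fold change, against 58.1% of 6634 genes, and the median was -0.27 against 0.15 for all genes. Mrpl58 passed downward, 1 of 62, where 1.04% of all genes passed downward and 1.49% upward. No gene had an adjusted p under 0.05 in limma, and 2.53% of all genes had an unadjusted p under 0.05. Mrpl58 was at 8.88 to 168 TPM (median 34.8 TPM) after IgG2a and at 0 to 41.5 TPM (median 22.3 TPM) after treatment (chr11:115403752-115412674). The groups overlap widely, and over all genes 0% were free of overlap upward and 0.0151% downward. The difference had a log2 fold change of -1.95 ± 0.90 (SE; adjusted p = 1.000, limma) and an exact permutation p of 0.0936. The call was lost in 7 of 15 refits that each left out 1 library (spleen_70_a, spleen_70_b, spleen_70_c, spleen_72_b, spleen_76_a, spleen_77_a or spleen_79_b). The median of the members also turned, to 0.03 without spleen_79_b and to 0.04 with the number of detected genes as a covariate, so its direction is not firm. Mrpl52 (-1.68 ± 0.89, SE), Mrpl18 (-1.48 ± 0.85, SE) and Mrps34 (-1.36 ± 0.85, SE) came next among negative values and did not pass, and Mrps25 had the highest positive value among the named genes, 1.20 ± 0.87 (SE). OXPHOS genes had a median of -0.03 and cytosolic ribosomal protein genes -0.15.

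After IgG2a alone, Tregs of GBM were set against those of spleen. Here 66 genes were tested, 2 passed downward and none upward, against 2.3% downward and 7.63% upward over all 7380 genes. Mrpl3 was at 19.3 to 236 TPM in spleen (median 73.8 TPM) and, as listed above, at 0 to 46.1 TPM in GBM, with a log2 fold change of -3.06 ± 0.97 (SE; adjusted p = 0.174, limma; exact permutation p = 0.0177). Mrps34 was at 6.61 to 172 TPM in spleen (median 76.98 TPM), with -2.76 ± 0.94 (SE; adjusted p = 0.238, limma; exact permutation p = 0.0316). In each gene 2 of the 5 GBM libraries, libraries tumor_79_a and tumor_369_a, lay below all 7 spleen libraries, and no group of either gene was free of overlap, against 1.25% of all genes upward and 0.23% downward. Without these both calls ended, at -1.01 and -1.23. The median of the genes was -0.01 against 0.48 for all genes, and it became 0.60 against 0.72 without library tumor_369_a, so that no direction can be given for the set. The Treg markers summed to 167 to 1525 TPM (median 460 TPM) in spleen and 842 to 1588 TPM (median 868 TPM) in GBM, with 2 of 6 passing upward, and the macrophage and microglia markers to 16.5 to 56.1 TPM in spleen and 36.3 to 3738 TPM in GBM. The 3 red blood cell markers had a summed median of 711 TPM in spleen and 29.1 TPM in GBM, and all 3 passed downward. Of the macrophage and microglia markers C1qa and Cx3cr1 passed upward, and of those of neurons and glia Gfap and Mbp did. The part of these in the result was not tested. Counted over both directions, 5 of 60 genes passed without spleen_79_b and 4 of 63 without spleen_76_a, Mrpl3 and Mrps34 among them. The medians were then 0.34 and 0.15, with 38 and 35 positive values, and lay 0.34 and 0.40 below those of all genes. The share of all genes that passed in these refits is not given here. Rbfa fell as well, by 3.28 ± 0.95 on the log2 scale (SE, limma). In the upward direction Mrps36 (1.77 ± 0.94, SE), Mrpl40 (1.75 ± 0.90, SE) and Mrps25 (1.59 ± 0.95, SE) had the highest values among the named genes, none of which passed. Without libraries tumor_79_a and tumor_369_a these were 1.25, 0.56 and 1.77, and again none passed.

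After αPD1+αGITR the same tissues gave the most calls. Of 62 genes tested 58 had higher levels in GBM than in spleen, where 77.6% of all genes did, and 27 passed upward (43.5%) and none downward, against 33.9% upward and 6.31% downward over 7506 genes. The median log2 fold change was 1.31 against 0.95 for all genes. With a mean above 10 TPM required in each group, 23 of 54 genes passed upward (42.6%, background 32.3%). An adjusted p under 0.05 in limma was reached by 6 of the genes with such means in both tissues, Mrpl4, Mrpl36, Mrpl54, Mrpl58, Mrps23 and Mrps35. With Mrpl41, which was tested only through its level in GBM, they were 11.3% of the 62 genes, where 17.5% of all genes tested reached it. In none of the 62 genes were the groups free of overlap, as they were for 2.96% of all genes upward and 0.04% downward. Markers of cell types moved with this contrast. The summed level of 6 Treg markers was 148 to 1247 TPM (median 525 TPM) in spleen and 1002 to 1602 TPM (median 1390 TPM) in GBM, and 5 of the 6 passed upward (Foxp3, Il2ra, Ikzf2, Ctla4 and Cd3e; median log2 fold change of the list 1.60). The 7 macrophage and microglia markers summed to 11.1 to 224 TPM (median 52.1 TPM) in spleen and 29.3 to 1172 TPM (median 78.3 TPM) in GBM, with a median log2 fold change of 2.12 over the 5 tested and Itgam below 1 TPM in every library of both groups. The 3 red blood cell markers had a summed median of 2878 TPM in spleen and 9.14 TPM in GBM. Their part in the result was not tested. This comparison and the treatment comparison within GBM share the 7 treated tumor libraries and are not independent.

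Mrpl4 had the smallest p (chr9:21002738-21008839). Spleen libraries ran from 8.62 over a median of 19.0 to 47.7 TPM, and GBM libraries from 40.3 over 74.9 to 146 TPM, with 6 of 7 above all spleen values. The log2 fold change was 1.86 ± 0.49 (SE; adjusted p = 0.0158, limma; exact permutation p = 0.000466). Mrpl58 was at 0 to 41.5 TPM in spleen and at 39.6 to 95.6 TPM (median 69.5 TPM) in GBM, again with 6 of 7 above, and a log2 fold change of 2.52 ± 0.78 (SE; adjusted p = 0.0324, limma). It had the largest fold change of the 27. Mrpl36, one of the smallest proteins of the large subunit, was at 0 to 39.6 TPM (median 11.5 TPM) and at 20.5 to 63.1 TPM (median 35.5 TPM), with 2.08 ± 0.63 (SE; adjusted p = 0.0303, limma).

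In the small subunit, Mrps23 was at 0 to 31.3 TPM (median 11.7 TPM) in spleen and 18.2 to 42.2 TPM (median 35.4 TPM) in GBM, with 4 of 7 GBM libraries above all spleen libraries and a log2 fold change of 2.27 ± 0.71 (SE; adjusted p = 0.0339, limma). Mrps35 had 1.91 ± 0.62 (SE; adjusted p = 0.0391, limma) and Mrpl54 1.70 ± 0.52 (SE; adjusted p = 0.0316, limma). Mrpl41 had 2.10 ± 0.69 (SE), given without a test, since it averaged 6.04 TPM in spleen against 22.96 TPM in GBM and had to be higher in GBM to be tested. The 6 genes stayed past the unadjusted threshold in each of the 15 refits that left out 1 library. The adjusted p was less firm. Only that of Mrpl4 stayed under 0.05 in all 15, while the others kept it in 4 (Mrps35) to 11 (Mrpl36). Over all alternatives the adjusted p in limma reached 0.0931 for Mrpl4, 0.150 for Mrpl54, 0.184 for Mrpl36, 0.194 for Mrps23, 0.205 for Mrpl58 and 0.233 for Mrps35. Averaging libraries with the same number left 7 of the 27 calls, and the share of all genes in that refit is not given here. By subunit, 18 of 39 tested large subunit symbols and 9 of 23 small subunit symbols passed upward, where 33.9% of all genes did. Mrpl48 again had a negative value, -0.90 ± 0.50 (SE), which did not pass. Of the other lists, Malsu1 (1.78 ± 0.61, SE; adjusted p = 0.0455, limma) was higher in GBM. Ddx28, an RNA helicase of large subunit assembly, averaged 17.3 TPM in GBM and 2.81 TPM in spleen and was tested only through GBM, so its log2 fold change of 2.72 ± 0.66 (SE) is a description. OXPHOS genes were higher in all 72 of 72 cases with 40 passing (median 1.39), and cytosolic ribosomal protein genes in 80 of 82 with 2 passing (median 0.70).

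Scaling moved this contrast. With trimmed scaling factors of the TMM type, which bring the median of all genes from 0.95 to 0.22, the median of these genes was 0.59, and 51 of 62 were positive, where 58.3% of all genes were. Upward 5 passed, Mrpl36, Mrpl4, Mrpl58 and Mrps23 and, tested only through its level in GBM, Mrpl41, which is 8.06% against 12.1% of all genes, and Mrpl48 passed downward, where 12% did. In the treatment comparison within GBM the same scaling brought the median of all genes from 0.62 to 0.05 and that of these genes to 0.49, with 42 of 64 positive against 52% of all genes. Upward 4 passed, Mrps34 and, with the limit of the filter given above, Mrpl32, Mrpl44 and Mrps5, which is 6.25% against 6.1% of all genes, and Mrpl48 passed downward, where 7.79% did. The direction of the median held in both. For cytosolic ribosomal protein genes it turned, to -0.13 and -0.36.

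**Figure D5:**
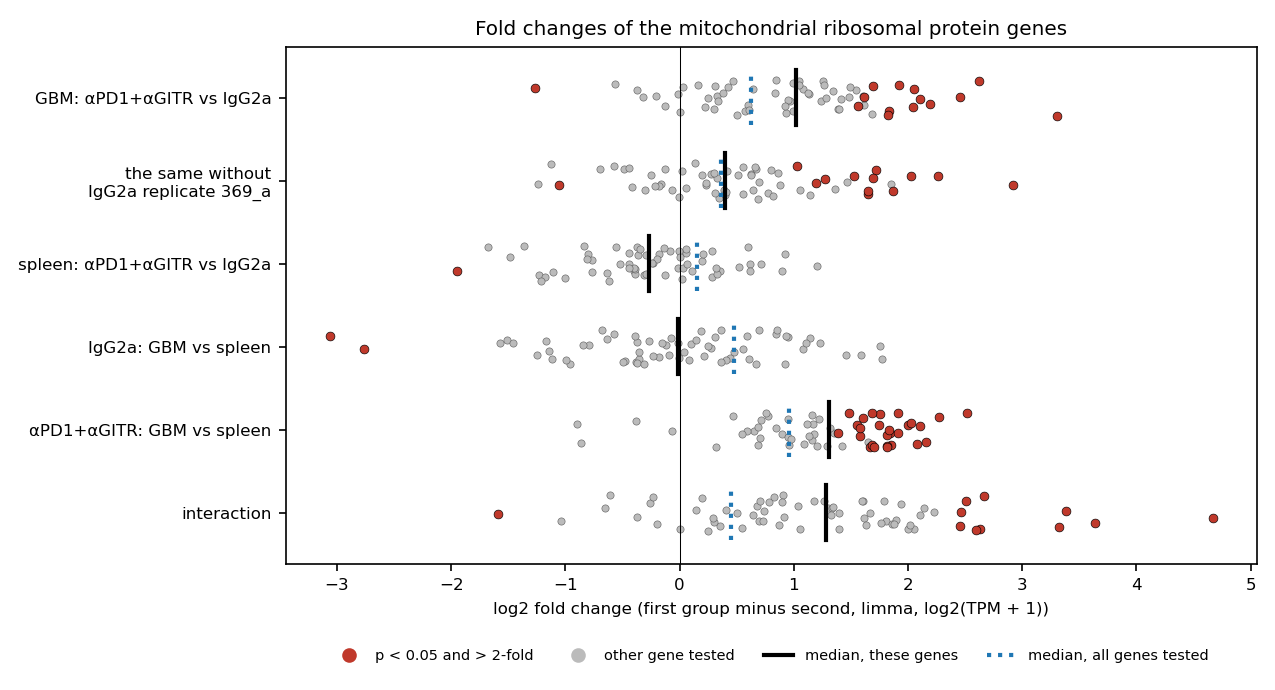
Log2 fold changes (limma, log2(TPM + 1)) of each tested gene in the comparisons, with red points for genes past the threshold, the median of these genes as a black line and that of all genes tested as a dotted blue line. The black line stands right of the blue line in GBM after treatment (1.02 against 0.62), next to it once library tumor_369_a is left out (0.40 against 0.36), and left of it in spleen (-0.27 against 0.15).

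Whether the change with treatment differed between tumor and spleen was tested directly as the interaction of tissue and treatment over all 4 groups. Of 68 genes tested 60 had a positive value and 10 passed upward, 14.7% against 6.8% of 8687 genes, and Mrpl48 passed downward, where 5.35% did. No gene had an adjusted p under 0.05 in limma, and 12.2% of all genes had an unadjusted p under 0.05. The median was 1.28 against 0.45. Mrps34 had the largest value, 4.67 ± 1.23 (SE; adjusted p = 0.314, limma), since it was higher after treatment in GBM and had a negative value in spleen. It was followed by Mrpl58 (3.63 ± 1.32, SE), Mrpl3 (3.38 ± 1.32, SE) and Mrps30 (3.32 ± 1.24, SE), and then by Mrpl52, Mrpl20, Mrpl16, Mrps23, Mrpl44 and Mrpl36 at 2.46 to 2.67. With a mean above 10 TPM required in each group, Mrpl16 and Mrpl44 were not tested and 8 of 47 passed upward (17.0%, background 6.03%). Without library tumor_369_a, 5 of 70 genes passed, all upward (7.14%, background 3.32%; median 0.64 against 0.23). Without it and library tumor_79_a 3 of 66 did (4.55%, background 1.88%; median 0.81 against 0.36), Mrps34 at 3.14 and Mrpl58 at 2.94 among them. Mrpl3 was then at 1.33 and Mrps30 at 1.55, and neither passed. Mrpl3 also lost its call without tumor_369_a or tumor_79_a alone. Leaving out 1 other library gave 7 calls without spleen_79_b, spleen_76_a or tumor_79_a, 6 without spleen_72_b or spleen_77_a and 17 without spleen_79_a. Without tumor_79_a all 7 were upward, 10.6% of 66 genes tested against a background of 6.44%. The share of all genes in the other refits is not given here. Mrps34 and Mrpl58 kept their direction and their call when any of these libraries was left out. Cell type markers had interaction medians of -2.91 for red blood cells (3 tested) and -2.13 for neurons and glia (2 tested, Mbp passing downward). Those of macrophages and microglia had -1.11 (6 tested), the 1 CD8 marker 0.37 and the 6 Treg markers 0.01. The part of these in the result was not tested.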

How the data were processed

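The gene family and the gene lists described here were chosen with earlier results of these data known; within the family, members follow from their symbols. Per the labels, libraries were demultiplexed with bcl2fastq and aligned with TopHat2 to mm10, and per the study's methods the authors computed TPM, a transcript abundance scaled to length and to a fixed library total, with RSEM; versions are not given in the sources used here. The deposited values are TPM plus 1, as their lowest value and library sums show, so 1 was taken off for levels and log2(TPM + 1) was tested. Per the series' design text, spleen samples came from different mice and so did tumor samples; whether a spleen and a tumor with the same number share a mouse is not stated. Of 28 described samples 27 have a named column in the table; 1 unnamed column was not used, and 1 spleen sample after αPD1+αGITR was not analysed here. TPM keeps no read depth, so counting error is unknown and replicate spread is the error given.

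A gene was tested if its mean was above 10 TPM in at least 1 group of the fit. Fits used limma 3.58.1 (lmFit, eBayes with trend) in R 4.3.3 on the groups compared, with the interaction fitted over all 4 groups, and p-values were adjusted by Benjamini-Hochberg over all genes tested. A call, written as rose, fell or passed, is the study's threshold of p under 0.05 with more than a 2-fold change. The p was taken here as unadjusted, which the study does not state. Fold changes on the log2(TPM + 1) scale understate those of low genes. Exact permutation tests over libraries were two-sided. The count and median of a list stand beside those of all genes tested, with no test of the list.

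Named genes are the 8 with the smallest p per comparison, the 5 highest and 5 lowest by mean TPM, those with the largest and smallest range of group means, and 12 with a distinct role. Alternatives were other pseudocounts (0.1 and 10), filters, scalings, weights and covariates, other sets of libraries and leaving out each library; leaving out both GBM IgG2a libraries tumor_369_a and tumor_79_a was added after the data were seen. No pair of the 351 library pairs was a duplicate (r of log2 values 0.23 to 0.85). The fits were tested on simulated data. Other tools were Python 3.11.15, numpy 2.4.6, pandas 2.3.3, scipy 1.17.1 and matplotlib 3.10.9.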

Additional observations from a re-analysis of the deposited data

Results flagged for a closer look

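Among 100 sets of values, each from 1 group of 5 to 8 libraries, 12 values stood apart from the rest of their group by Dixon's criterion. Chance alone gives about 1 in 20, but the sets reuse the same libraries and are not independent. In GBM IgG2a library tumor_369_a these were the ratio of large to small subunit symbols (13.8411), Mrpl41 (336.64 TPM), Mrpl18 (186.31 TPM) and Mrps36 (85.31 TPM). In spleen after αPD1+αGITR they were the same ratio in library spleen_72_b (3.9324), where 16 of the 75 genes were listed at 0, and Mrpl36 in library spleen_74_a (39.55 TPM). GBM IgG2a library tumor_76_a was high for Mrpl20 (74.61 TPM). In spleen after IgG2a, library spleen_79_b was high for Mrpl17 (98.93 TPM) and Mrps25 (23.43 TPM). In GBM after αPD1+αGITR, library tumor_70_b was high for Mrpl54 (149.55 TPM) and Mrps25 (52.63 TPM), and library tumor_73_a for Mrps5 (75.64 TPM).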

How the results depend on the processing

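The number of genes past the threshold depended on scaling and on single libraries. For treatment in GBM, 14 calls became 9 with a filter on every group, 7 after quantile normalization, 5 with TMM-type factors, 9 after rescaling without the 10 most abundant features, 8 with library weights and 6 without libraries tumor_369_a and tumor_79_a. In spleen, 1 call became 5 (quantile), 4 (TMM-type), 4 (without abundant features), 0 (detected genes as covariate), 3 (weights) and 2 (all groups in 1 fit). Between tissues, 2 calls after IgG2a became 4 (quantile), 4 (weights) and 0 (both replicates out), and 27 after αPD1+αGITR became 17 (pseudocount 10), 12 (quantile), 6 (TMM-type), 16 (covariate) and 7 (libraries with the same number averaged). The 11 interaction calls became 17 (weights), 6 (averaged) and 3 (both replicates out). Leaving out each library gave 11 to 25, 0 to 3, 2 to 5, 19 to 33 and 5 to 17 calls in this order of comparisons, and medians of 0.40 to 1.31, -0.60 to 0.03, -0.36 to 0.60, 1.14 to 1.501 and 0.64 to 1.56. Mrps30 between tissues after IgG2a reversed, to 0.22 with weights and 0.19 without both replicates. Same-numbered libraries of GBM and spleen deviated together in 1 of 9 pairs (r from -0.150 to 0.158, over 0.1 in 1), so the numbers were not taken to pair samples; with the replicate block, 2 genes passed after IgG2a (median 0.05) and 18 after αPD1+αGITR (median 1.15). The causes were not tested. With unknown depth, genes near 0 TPM cannot be compared.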
